A study of Mus musculus with 6 samples.

Results

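The genes of the synaptic vesicle and of the SNARE fusion machinery were examined in the retina of mouse embryos with and without Onecut1, a transcription factor of developing horizontal and ganglion cells. The set has 38 genes, picked by name and function when earlier results of these arrays were known, of 18193 genes that have a probe set of their own on the array. Retinas of 6 embryos were profiled, 3 wildtype (WT) and 3 lacking Onecut1 (OC1-KO), with 1 Affymetrix mouse genome array per embryo and total RNA of the whole retina. The sample labels give the stage as embryonic day 14, and the series title puts it slightly later. The knockout allele was made in R1 embryonic stem cells that were injected into a Swiss strain, and the line was then crossed to C57Bl/6 for some generations, so that both groups share a mixed background. The WT embryos were littermates of the OC1-KO embryos, and the labels number the embryos 1, 2 and 3 in each genotype.

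Neurons store transmitter in vesicles and release it when calcium enters the terminal. A SNARE on the vesicle (a VAMP) pairs with SNAREs on the plasma membrane (a syntaxin and a SNAP protein), synaptotagmins sense calcium, complexins hold the assembled SNAREs ready, and large scaffold proteins such as Bassoon and Piccolo mark the place of release. The ATPase NSF and its SNAP adaptors then take the SNAREs apart for another round. At this age ganglion, amacrine, horizontal and cone cells are being born, and most retinal synapses form later.

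Levels are given as log2 of the MAS5 signal, a scaled brightness of the probes for 1 transcript. A probe set was kept where the mean log2 signal exceeded 7 in either genotype, which held for 20888 of 45101 probe sets. Each gene is represented by its brightest probe set that maps to that gene alone, and because probes differ in brightness no gene's level is set against that of another. A difference is the OC1-KO mean minus the WT mean in log2 units, with the standard error (SE), 95% interval and p of limma, a linear model fitted to all probe sets together.

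All 38 genes had a probe set of their own, and 34 were kept, each of them with a mean over 7 in both genotypes. Vamp1, Syt2, Syn2 and Sv2c were below the threshold. They ranged from 5.36 to 7.17 (Vamp1), 3.54 to 5.77 (Syt2), 6.12 to 6.97 (Syn2) and 2.57 to 5.90 (Sv2c) over the 6 arrays, and were not tested.

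**Figure D1:**
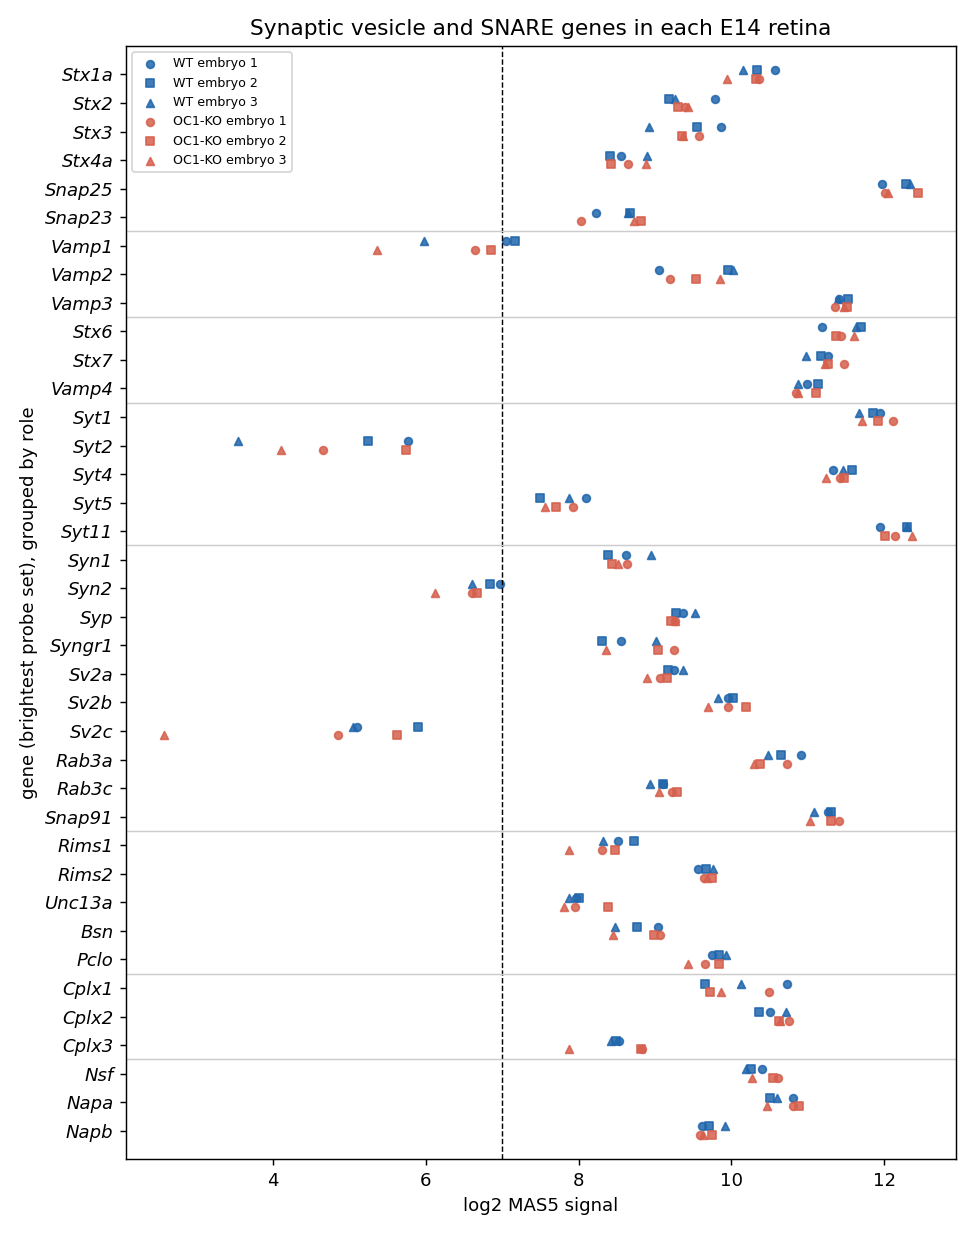
Log2 MAS5 signal (horizontal axis) of the 38 genes in each of the 6 arrays, by role from top (plasma membrane SNAREs) to bottom (SNARE recycling); blue points are WT, red points OC1-KO, and circles, squares and triangles are embryos numbered 1, 2 and 3. The dashed line is the threshold of 7. Vamp1, Syt2, Syn2 and Sv2c lie mostly below it, and blue and red points overlap for all of the other genes but Syp and Sv2a.

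The targeted gene was read first. Onecut1 was 9.25, 8.76 and 9.00 in WT embryos 1, 2 and 3 and 9.02, 8.31 and 9.67 in OC1-KO embryos 1, 2 and 3 on 1 probe set, and 8.51, 8.43 and 9.30 against 8.94, 7.51 and 9.30 on the other. The genotypes overlapped on both. Whether these probes fall within the deleted sequence was not determined here, so their signal checks nothing about the labels. Of the study's supplementary gene lists from these arrays, one heads its columns with the genotypes as in the sample labels and another with WT and OC1-KO exchanged. The sample labels were followed here, and every signed difference rests on them. The related gene Onecut2 was 10.66, 10.90 and 10.67 in WT and 10.02, 10.68 and 10.56 in OC1-KO embryos.

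Markers of the retina were present. Of the markers with a probe set, 9 of 9 progenitor genes (brightest Ccnd1 and Sfrp2), 12 of 12 genes of differentiating neurons (Stmn2 and Tubb3), 8 of 9 ganglion cell genes (Nefl and Isl1), 7 of 8 photoreceptor precursor genes (Neurod1 and Otx2) and 6 of 8 each of amacrine (Ptf1a and Tfap2b) and horizontal cell genes (Onecut2 and Tfap2b) were kept. The horizontal cell genes not kept were Lhx1 and Calb1, which the study used as markers of these cells. Of those kept, Tfap2a, Tfap2b and Prox1 are also on the amacrine list, and Onecut1 is the targeted gene. The list therefore does not single out horizontal cells. The summed signal of the neuronal genes lay between 16.21 and 16.59 on a log2 scale. The median MAS5 signal per array was 85 in OC1-KO embryo 3 and between 97.3 and 104 in the other five. The number of arrays, 3 per genotype, limits the precision of every value.

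Compared with WT retinas, no gene of the set differed in the OC1-KO retina by limma after Benjamini-Hochberg adjustment, where 0 (0%) of all 20888 probe sets passed at 0.05. Without adjustment, at p under 0.05, again 0 of the 34 genes was called higher and 0 lower, against 0.369% and 0.637% of all probe sets. Used on the same values, the methods' t-test, unpaired, called 0 higher and 0 lower, against 0.766% and 0.747%. Of the 34 genes 16 were higher and 18 lower, with a median difference of −0.02 (−0.01 over all probe sets kept), and differences ran from −0.30 (Rims1) to 0.26 (Syngr1). For all probe sets kept, the 5th and 95th percentiles were −0.32 and 0.26.

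These values set a limit on what could have been missed. On its brightest probe set, the 95% interval of each of the 34 genes held 0. It lay within 1 log2 unit of 0 on both sides, which is a doubling or halving, and for 14 genes within 0.5. The median half-width of these intervals was 0.43 and the median absolute difference 0.09 (0.10 over all probe sets kept). These intervals are from the unpaired fit, and a true change of any size inside them would be compatible with its values. The limit does not hold for every other kept probe set of these genes. On Stx3 1434559_at the interval was −1.11 to −0.38, and on Stx6 1441133_at −0.75 to 3.04. It was −0.95 to 1.38 on Cplx2 1421477_at and −1.37 to 0.83 on Napb 1452444_at. Further kept probe sets of Syt1, Syt11, Cplx2, Vamp3 and Nsf also had intervals that passed 1 log2 unit, such as −1.14 to 1.11 on Syt11 1456464_x_at. In bulk RNA, fewer cells of a type and less RNA per cell cannot be told apart.

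Groups that did not overlap, that is with all 3 OC1-KO values on one side of all 3 WT values, were found for 0 genes in the higher direction (1.70% of all probe sets) and for 2 genes, Syp and Sv2a, in the lower (1.86%). A difference in the same direction in all 3 pairs of same-numbered embryos was found for 4 genes higher (11.8%, against 10.3% of all probe sets) and 6 lower (17.6%, against 13.1%). The 4 were Stx7, Syt1, Rab3c and Nsf, and the 6 were Stx1a, Syp, Sv2a, Rab3a, Rims1 and Pclo. With embryo number as a block in limma, 0 genes were called higher at an unadjusted p of 0.05 (1.57% of all probe sets) and 1, Rims1, lower (2.81%).

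**Figure D2:**
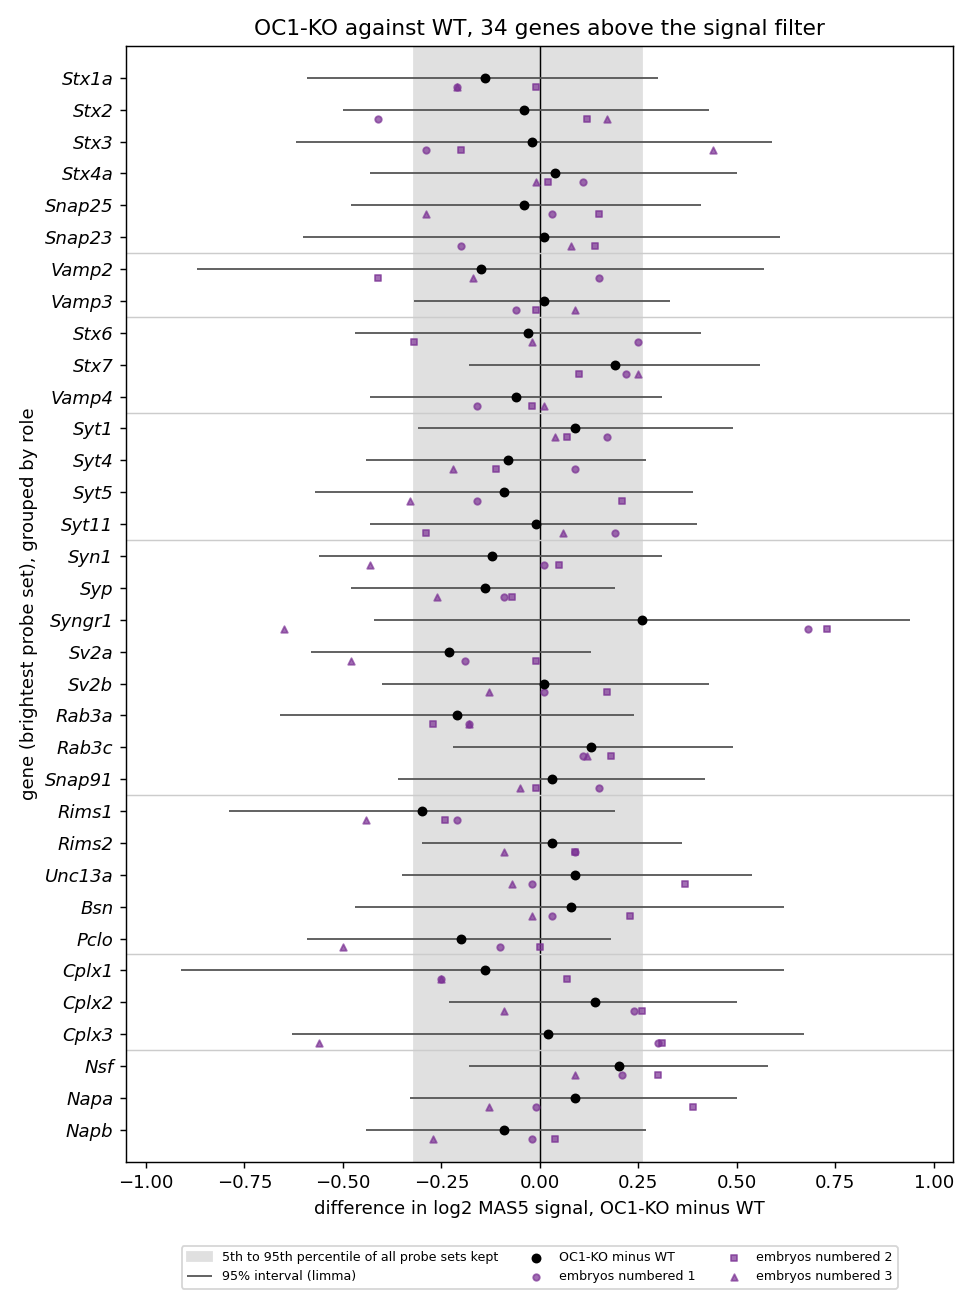
Difference in log2 MAS5 signal, OC1-KO minus WT (horizontal axis), for the 34 genes kept, grouped by role as in the plot of signals. Black points are the fitted differences, lines their 95% intervals, small purple symbols the 3 differences between same-numbered embryos, and the grey band the 5th to 95th percentile of all probe sets kept, −0.32 to 0.26. All 34 lines cross 0.

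The plasma membrane SNAREs were expressed in every retina. Of the 6, 2 were higher and 4 lower in OC1-KO, all between −0.14 and 0.04. Snap25, the SNAP protein of neurons that binds both syntaxin and VAMP, was 11.97, 12.29 and 12.34 in WT embryos 1, 2 and 3 and 12.01, 12.44 and 12.05 in OC1-KO embryos 1, 2 and 3, a difference of −0.04 (SE 0.19, 95% interval −0.48 to 0.41). The WT embryo 1 and OC1-KO embryos 1 and 3 were the low ones, so the genotypes overlapped. Stx1a, the syntaxin of conventional synapses, was 10.57, 10.33 and 10.15 in WT and 10.36, 10.32 and 9.94 in OC1-KO embryos (−0.14, SE 0.19), on a probe set of the x_at type, whose probes can also match other transcripts. In both genotypes embryo 1 was highest and embryo 3 lowest. The widely expressed Snap23 was 8.23, 8.67 and 8.64 in WT and 8.03, 8.82 and 8.72 in OC1-KO (0.01, SE 0.25), with embryo 1 lowest in each genotype. Stx2 and Stx4a, which serve plasma membrane fusion in many cell types, differed by −0.04 and 0.04.

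Stx3 is the syntaxin of ribbon synapses, the specialised synapses that photoreceptors and bipolar cells form later, and it has 4 probe sets that did not move together. On the brightest, 1425536_at, the gene was 9.87, 9.55 and 8.92 in WT and 9.58, 9.35 and 9.37 in OC1-KO embryos. The 3 OC1-KO values lay inside the WT range, and the difference was −0.02 (SE 0.25, 95% interval −0.62 to 0.59). On 1425530_a_at the values were 7.80, 7.92 and 7.63 in WT and 7.56, 7.83 and 7.25 in OC1-KO (−0.24, SE 0.19, adjusted p = 1.00 by limma). Each OC1-KO embryo was below the WT embryo of its number, but the genotypes overlapped.

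On 1434559_at Stx3 was 7.41, 7.71 and 7.52 in WT and 6.93, 6.71 and 6.78 in OC1-KO embryos. Here all OC1-KO values were below all WT values, by 0.48, 1.00 and 0.74 within the numbered pairs. The fitted difference was −0.74 (SE 0.15, 95% interval −1.11 to −0.38), a signal 0.598 times that of WT. In limma its p was 0.00196 before adjustment and 1.00 after, and the exact permutation test gave p = 0.1, the smallest that 3 against 3 arrays allow (two-sided). This probe set had been singled out earlier for its p in these same arrays, so its values are a description. It was kept only through the WT mean of 7.55, since the OC1-KO mean was 6.81. On the 4th probe set, 1426151_a_at, all 6 arrays were below 7 (6.44, 5.96 and 6.38 in WT, 5.97, 6.64 and 6.44 in OC1-KO). Which Stx3 transcripts each probe set reads was not determined here.

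**Figure D3:**
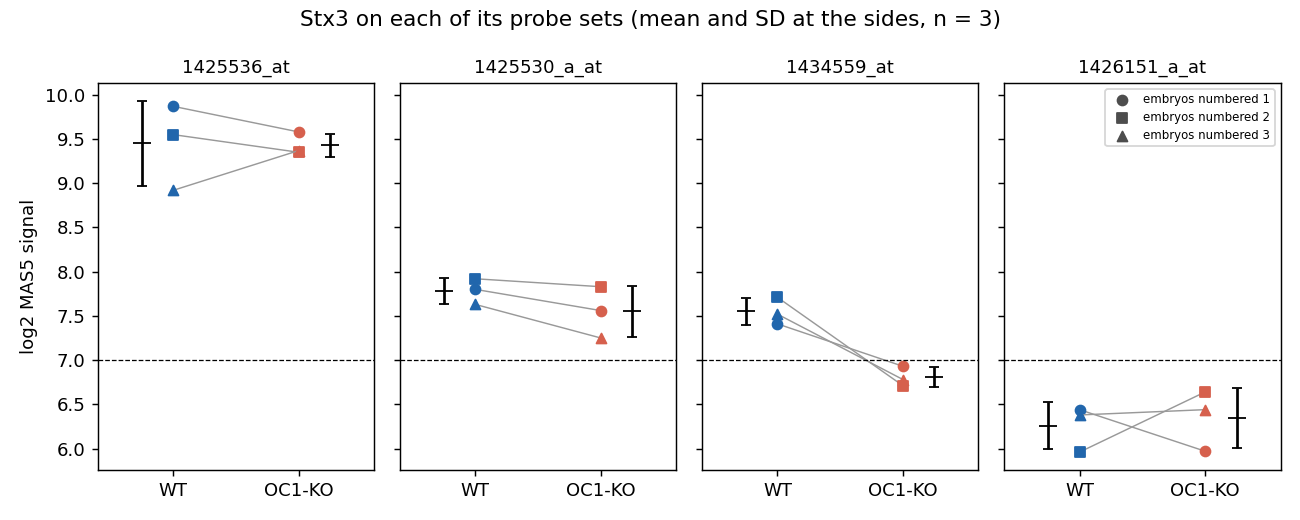
Log2 MAS5 signal (vertical axis) of Stx3 on its 4 probe sets, 1 per panel, in WT (blue) and OC1-KO (red) embryos, with grey lines joining embryos of the same number and black bars giving the mean and SD of 3 embryos. The dashed line is the threshold of 7. On 1434559_at the OC1-KO points, 6.71 to 6.93, lie below the WT points, 7.41 to 7.71, and on the brightest, 1425536_at, they lie inside the WT range.

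Over the 105 probe sets of the 38 genes, 72 were kept, 41 higher and 31 lower, and 1434559_at was the only one with an unadjusted limma p under 0.05 (0.637% of all probe sets in the lower direction). The genotypes did not overlap on 3 lower (Stx3 1434559_at and those of Sv2a and Syp; 1.86% of all probe sets) and 1 higher, Stx6 1431646_a_at (1.70%). Of the 20 genes with more than 1 probe set kept, 10 had probe sets that differed in sign.

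Among the vesicle SNAREs, Vamp2, the main VAMP of brain synaptic vesicles, was 9.05, 9.95 and 10.02 in WT and 9.20, 9.53 and 9.85 in OC1-KO embryos (−0.15, SE 0.30). The genotypes overlapped and embryo 1 was the lowest of both. Vamp3, its counterpart on recycling vesicles of most cells, was 11.41, 11.52 and 11.39 in WT and 11.35, 11.51 and 11.48 in OC1-KO, a difference of 0.01 (SE 0.14). The SNAREs of endosomes and the Golgi were Stx6, Stx7 and Vamp4. Stx7, which acts in late endosomes, was 11.26, 11.17 and 10.98 in WT and 11.47, 11.27 and 11.23 in OC1-KO, higher in all 3 pairs (0.19, 95% interval −0.18 to 0.56, adjusted p = 1.00 by limma), although the groups overlapped. Stx6, of the trans-Golgi and early endosomes, was 11.19, 11.69 and 11.63 against 11.43, 11.37 and 11.61 on its brightest probe set, of the x_at type (−0.03, SE 0.19). Its other 4 probe sets that were kept were higher in OC1-KO, by 0.02, 0.13, 0.37 (1431646_a_at, SE 0.17) and 1.15 (1441133_at, SE 0.80), so that the direction for Stx6 rested on the choice of probe set. These last 2, named after their values were seen, had an unadjusted limma p of 0.0293 and 0.0134 once embryo number was a block, and an adjusted p = 0.999 each. The last, 1441133_at, was kept only through the group where it is high, with a mean of 5.98 in WT and 7.13 in OC1-KO. A further Stx6 probe set, below the threshold, differed by 0.00. Vamp4, a Golgi VAMP, differed by −0.06.

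Of the 5 synaptotagmins 4 were kept, and they differed by −0.09 to 0.09. Syt1, the calcium sensor of fast release, was 11.95, 11.85 and 11.67 in WT and 12.12, 11.92 and 11.71 in OC1-KO embryos (0.09, SE 0.17, 95% interval −0.31 to 0.49). Each OC1-KO embryo exceeded the WT embryo of its number and the order of embryos, 1 over 2 over 3, was shared. Another Syt1 probe set, 1421990_at, named after its values were seen, gave 0.46 (SE 0.24). Its limma p was 0.0449 in the blocked fit and 0.999 after adjustment. Of the others kept, 1431191_a_at gave 0.20 and 1438282_at −0.11, so the Syt1 probe sets differed in sign. Syt11, a synaptotagmin that does not bind calcium, was 11.95, 12.30 and 12.30 in WT and 12.14, 12.01 and 12.36 in OC1-KO (−0.01, SE 0.18). Syt4 differed by −0.08 and Syt5 by −0.09, and the fast sensor Syt2 was below the threshold in all arrays.

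The proteins of the vesicle itself held the 2 genes without overlap. Sv2a, a transporter-like glycoprotein found on nearly all synaptic vesicles, was 9.25, 9.17 and 9.37 in WT and 9.06, 9.16 and 8.89 in OC1-KO embryos. The highest OC1-KO value and the lowest WT value, both of embryos numbered 2, were nearly equal. The difference was −0.23 (SE 0.15, 95% interval −0.58 to 0.13), with the lowest limma p of the 34 genes, 0.173, and adjusted p = 1.00. Syp, synaptophysin, an abundant membrane protein of small synaptic vesicles, was 9.36, 9.28 and 9.52 in WT and 9.26, 9.21 and 9.26 in OC1-KO (−0.14, SE 0.14, adjusted p = 1.00 by limma). Its groups, too, were separated by a narrow gap, 9.26 against 9.28.

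The other vesicle proteins that were kept did not separate the genotypes. Syngr1, synaptogyrin, was 8.56, 8.30 and 9.01 in WT and 9.25, 9.04 and 8.36 in OC1-KO embryos. OC1-KO was higher by 0.68 and 0.73 in the embryos numbered 1 and 2 and lower by 0.65 in those numbered 3, which gave 0.26 (SE 0.29, 95% interval −0.42 to 0.94). From embryos 1 and 2 alone it was 0.71, with an unadjusted limma p of 0.0146 that became 1.00 after adjustment. The share of all probe sets called in that smaller fit is not given, so this p is a description. Rab3a, the GTPase that ties vesicles to the release site, was 10.91, 10.65 and 10.48 in WT and 10.73, 10.38 and 10.30 in OC1-KO, lower in all 3 pairs (−0.21, SE 0.19). This was an x_at probe set, and the other one kept gave −0.02. Rab3c, a close relative, was 9.11, 9.11 and 8.93 against 9.22, 9.29 and 9.05, higher in all 3 pairs (0.13, SE 0.15). Snap91 (AP180), which recruits clathrin to retrieve vesicles, was 11.27, 11.31 and 11.08 against 11.41, 11.30 and 11.03 (0.03, SE 0.17). The vesicle tether Syn1 differed by −0.12 and Sv2b by 0.01.

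At the release site, 3 genes were higher and 2 lower. Rims1, a scaffold that links Rab3 on the vesicle to calcium channels, was 8.52, 8.72 and 8.32 in WT and 8.30, 8.48 and 7.88 in OC1-KO embryos, a difference of −0.30 (SE 0.21, 95% interval −0.79 to 0.19, adjusted p = 1.00 by limma). It was lower by 0.21, 0.24 and 0.44 within the pairs, while the groups overlapped. With embryo number as a block its limma p was 0.0449 before and 0.999 after adjustment, and the other probe set of Rims1 gave 0.01. Pclo, Piccolo, was 9.75, 9.84 and 9.93 in WT and 9.65, 9.84 and 9.43 in OC1-KO (−0.20, SE 0.16), with OC1-KO embryo 3 the lowest. Bassoon (Bsn) was 9.04, 8.76 and 8.48 in WT and 9.07, 8.99 and 8.45 in OC1-KO (0.08, SE 0.23) with the same order of embryos, 1 over 2 over 3, in both. Rims2 was 9.56, 9.67 and 9.76 against 9.64, 9.75 and 9.68 (0.03, SE 0.14) on a probe set of the s_at type, which can read several related transcripts. Another Rims2 probe set, 1436470_at, named after its values were seen, gave 0.31 (SE 0.17). Its limma p in the blocked fit was 0.0479, or 0.999 adjusted. A further kept probe set, 1422809_at, gave −0.15, so the Rims2 probe sets differed in sign. The priming factor Unc13a differed by 0.09.

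The complexins, which bind the assembled SNARE bundle, were all kept. Cplx1 was 10.73, 9.65 and 10.12 in WT and 10.49, 9.72 and 9.86 in OC1-KO embryos (−0.14, SE 0.32), with embryo 1 highest and embryo 2 lowest in each genotype. Its other 2 probe sets kept were higher in OC1-KO (0.25 and 0.17), and the mean of its probe sets gave 0.09. Cplx2, read by an s_at probe set, was 10.51, 10.36 and 10.72 against 10.75, 10.62 and 10.63 (0.14, SE 0.15). Cplx3, a complexin of ribbon synapses and some amacrine cells, differed by 0.02. The recycling factors were close to WT as well. Nsf was 10.40, 10.25 and 10.19 in WT and 10.61, 10.55 and 10.27 in OC1-KO, higher in all 3 pairs but with overlap (0.20, SE 0.16, 95% interval −0.18 to 0.58). Its adaptor Napa (alpha-SNAP) was 10.81, 10.50 and 10.60 against 10.80, 10.89 and 10.47 (0.09, SE 0.18), and Napb differed by −0.09.

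Promoter sequence was examined because the missing protein is a transcription factor, and the promoters of the 3 genes with a non-overlapping, lower probe set are shown. They are the 250 bases before the RefSeq start site (GRCm38.p6), 5′ to 3′ on the strand of the gene, at chr3:96180977-96181226 (plus strand, Sv2a), chrX:7638330-7638579 (plus strand, Syp) and chr19:11819404-11819653 (minus strand, Stx3). Capitals mark the GC box, GGGCGG or its reverse complement, a motif bound by Sp1-type factors.
Sv2a: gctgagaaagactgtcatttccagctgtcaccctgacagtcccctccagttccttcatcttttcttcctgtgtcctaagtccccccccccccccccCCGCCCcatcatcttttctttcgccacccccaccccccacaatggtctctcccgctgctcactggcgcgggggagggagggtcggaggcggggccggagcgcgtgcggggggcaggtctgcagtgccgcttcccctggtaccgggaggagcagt
Syp: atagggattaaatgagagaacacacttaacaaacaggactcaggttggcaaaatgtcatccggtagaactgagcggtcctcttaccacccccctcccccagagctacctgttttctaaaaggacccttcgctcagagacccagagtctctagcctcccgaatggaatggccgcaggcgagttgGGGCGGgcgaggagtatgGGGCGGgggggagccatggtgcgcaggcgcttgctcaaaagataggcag
Stx3: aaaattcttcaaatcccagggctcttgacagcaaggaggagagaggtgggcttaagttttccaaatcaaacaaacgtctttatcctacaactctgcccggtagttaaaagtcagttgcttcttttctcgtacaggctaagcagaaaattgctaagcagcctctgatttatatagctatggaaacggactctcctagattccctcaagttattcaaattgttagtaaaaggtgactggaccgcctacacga
The Sv2a window held 1 GC box, that of Syp 2 and that of Stx3 0, with a GC content of 66%, 56.4% and 42%. The core bound by Onecut proteins, ATTGAT or ATTGAC on either strand, was in 0 of these windows. Of the 38 genes 32 matched, with 42 promoters among them, of which 0 held that core and 23 (54.8%) held the GC box. Of the 32851 RefSeq promoters 11.6% held the core and 32.7% the GC box. The promoters of the set were also richer in G and C (median 60.6% against 52.4%), and the core is rich in A and T. A letter match is a description of these windows only.

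The wider release machinery was read from 98 other genes, of which 94 had a probe set and 80 were kept. Of these 43 were higher and 37 lower in OC1-KO, with a median of 0.01 and a range of −0.41 to 0.54, and 0 passed limma at an unadjusted p of 0.05. Among 25 further SNAREs and SNARE partners 16 were higher and 9 lower, with the smallest p for Vps45 (0.22, SE 0.15) and Vti1b (0.27, SE 0.19), both of endosomal fusion. Of 13 calcium sensors and priming factors 6 were higher and 7 lower, led by Syt17 (−0.41, SE 0.22) and Cadps2, a priming factor of dense-core vesicles (0.20, SE 0.16). With embryo number as a block Syt17 and Syt16 (−0.37) had an unadjusted limma p of 0.0183 and 0.0235 and an adjusted p of 0.999. In that fit 2.81% of all probe sets were called lower without adjustment.

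Vesicle proteins and transporters divided into 6 higher and 10 lower. Sncb, beta-synuclein, was 8.06, 7.68 and 8.12 in WT embryos and 9.02 and 8.44 in OC1-KO embryos 1 and 2, while OC1-KO embryo 3 was slightly below WT embryo 3 (0.54, SE 0.28, adjusted p = 1.00 by limma). Syn3, a synapsin, differed by −0.27 (SE 0.19). The vesicular glutamate transporter Slc17a6 of ganglion cells, named here after its values were seen, was 10.62, 10.61 and 10.35 against 10.51, 10.52 and 10.12 (−0.15). Active zone genes were 6 higher and 5 lower. Erc1, a binding partner of RIM, was higher without overlap (0.21, SE 0.15), as were 1.70% of all probe sets. Rab3gap2 differed by 0.18 (SE 0.18). The endocytosis genes were 9 higher and 6 lower, led by Itsn1, intersectin (0.19, SE 0.15), and Dnm1, dynamin (−0.27, SE 0.25).

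By embryo number, several genes of the set showed the same order of embryos in both genotypes, Cplx1 and Vamp2 with the widest spread. In a limma F-test of embryo number with genotype in the model, 0 of the 34 genes passed an adjusted p of 0.05, against 5.32% of all probe sets, and 7 (20.6%) had an unadjusted p under 0.05, against 31.9%. The 7 were Stx4a, Snap23, Vamp2, Rab3a, Rims1, Bsn and Cplx1. Cplx1 came first, with an adjusted p of 0.0561 in limma. Its other probe sets kept had another order, with embryo 2 highest in both genotypes on 1417746_at and embryo 3 highest in both on 1417747_at. Vamp2 (adjusted p = 0.0865) and Snap23 (0.0947) were lowest in embryo 1 of each genotype, while Bsn (0.103) and Rims1 (0.139) were lowest in embryo 3. On its other kept probe set, Snap23 was lowest in WT embryo 2 and OC1-KO embryo 1. Rims1, on its other kept probe set, was lowest in embryo 2 of each genotype. Of the 80 other release genes 2 passed, Syt16 (adjusted p = 0.0399 by limma), lowest in embryo 1, and Sgip1, of vesicle endocytosis (0.0401), at 10.11, 10.21 and 9.13 in WT and 10.22, 10.26 and 8.80 in OC1-KO.

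Embryo 3 was below the mean of embryos 1 and 2 for 23 of the 34 genes (67.6%, against 54.5% of all probe sets) and above it for 11. The median of this difference was −0.10 (−0.04 over all probe sets) and the median absolute size 0.21 (0.24). The ratio of 3′ to 5′ probe signal of Gapdh, a sign of RNA quality, was −0.42 and −0.49 on a log2 scale in embryo 3 of WT and OC1-KO and −0.27 to −0.24 in the others, and that of Actb 0.66 and 0.45 against 0.76 to 1.11. The part of these in the embryo differences was not tested. In 12 genes embryo 3 was the lowest of its genotype both in WT and in OC1-KO (27.9% of all probe sets): Stx1a, Stx7, Syt1, Sv2b, Rab3a, Rab3c, Snap91, Rims1, Unc13a, Bsn, Cplx3 and Nsf. The largest of these differences were −0.52 for Cplx3, −0.50 for Bsn and −0.40 for Rims1. These orders were read on the brightest probe set of each gene and did not always hold on another. On other kept probe sets the same difference was 0.42, 0.44 and −1.14 for Syt1 and 0.28 and −1.08 for Nsf. It was 0.33 for Rab3a, 0.15 for Rims1, 0.09 for Rab3c, −0.01 for Stx1a and −0.56 for Sv2b. Stx4a (0.37) and Vamp2 (0.50) were the 2 with embryo 3 highest in both (18.4% of all probe sets).

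**Figure D4:**
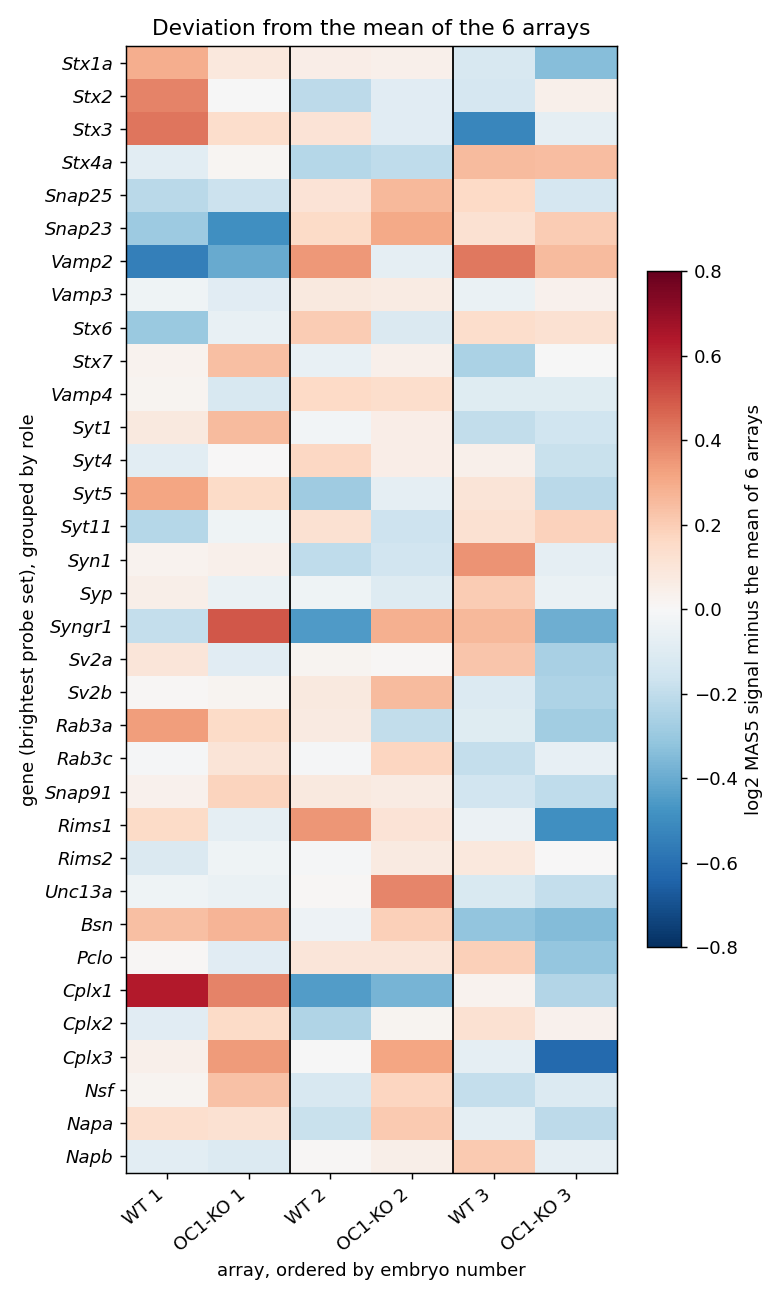
Deviation of each of the 34 genes from its mean over the 6 arrays, in log2 MAS5 signal (colour, red above and blue below the mean), with arrays ordered by embryo number and black lines between numbers. Bsn, Rims1 and Cplx3 are blue in embryo 3 of both genotypes, or nearly so in WT, Vamp2 is blue in embryo 1, and Cplx1 is red in embryo 1 and blue in embryo 2. Syngr1 has opposite colours in the genotypes at every number.

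Marker genes of neighbouring tissues were brighter on the arrays numbered 3. The summed signal of 8 lens genes was 7.17 to 8.52 on a log2 scale in embryos 1 and 2 and 14.31 and 13.37 in WT and OC1-KO embryo 3. By mean log2 over the 6 arrays Cryba1 and Crybb3 were brightest, and in embryo 3 of both genotypes Cryba1 and Crybb1. Of the 8 genes 3 were kept, each over 7 only in the arrays numbered 3. For 6 red blood cell genes (brightest Hbb-y and Hba-x, 1 kept) the sums were 6.12 to 9.53 and then 14.02 and 14.55. For 7 genes of periocular mesenchyme (Col1a2 and Col3a1, 1 kept) they were 8.79 to 9.38, then 11.45 and 11.20, and for 8 of the pigment epithelium (Pmel and Mitf, 3 kept) 8.66 to 9.39, then 9.85 and 11.12. The pigment epithelium sums were also higher in OC1-KO than in WT in all 3 pairs. No gene of any marker list had an unadjusted limma p under 0.05 between genotypes. In the blocked limma fit 3 did, where 1.57% of all probe sets were called higher and 2.81% lower. They were Pmel (1.40, p of 0.00258), Mitf (0.72, 0.00972) and the amacrine gene Gad2 (−0.75, 0.0193), with adjusted p = 0.999 for each. Pmel and Mitf were kept only through OC1-KO, where they are high, with WT means of 6.97 and 6.88. Endothelial genes (Kdr and Cldn5, 2 of 7 kept) summed to 10.58 to 11.27 and macrophage genes (Csf1r and C1qa, 2 of 7 kept) to 9.85 to 10.25. The differentiating neuron genes gave 16.55 and 16.59 in embryo 3 and 16.21 to 16.45 in the others. Progenitor sums were 16.25 to 16.78, ganglion cell sums 15.51 to 15.90 and horizontal cell sums 12.25 to 12.43 over the 6 arrays. The horizontal and amacrine lists share Tfap2a, Tfap2b and Prox1. In OC1-KO embryo 3 the photoreceptor precursor sum was 13.91, against 14.20 to 14.52 in the other arrays, and the amacrine sum 11.73, against 12.09 to 12.43. Cplx3 was 7.87 in that embryo and 8.42 to 8.83 in the others, while Syngr1, at 8.36 there, was lower still in WT embryo 2. The part of these tissues and cell types in the differences of the vesicle and SNARE genes was not tested. Without both arrays numbered 3, 18 of the 34 genes were higher and 16 lower in OC1-KO.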

How the data were processed

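Total RNA of 6 retinas was amplified, labelled with biotin and hybridised to 1 Affymetrix mouse genome array per embryo. The deposited values are probe set intensities on a linear scale, which the authors computed with MAS5 (background adjustment and scaling of each array). In the files the mean of each array without the outer 2% at either end was 500. MAS5 scales arrays linearly, so differences in the brightness distribution between arrays remain. Here the intensities were log2-transformed, 64 control probe sets were left out and probe sets with a mean log2 over 7 in either genotype were kept, as in the methods of the study. Of these 20888, 18250 carried 1 gene symbol in the platform annotation, 505 several and 2133 none. Genes were named only from probe sets with 1 symbol.

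OC1-KO was compared with WT in limma 3.58.1 (R 4.3.3; lmFit and eBayes, two-sided), with Benjamini-Hochberg adjustment over all probe sets kept. Embryo number was tested with a moderated F-test beside genotype. The methods' t-test (equal variances) and exact permutation tests were run on the same values. The test scripts were checked on simulated data. The labels number the embryos but do not state that a number marks a shared litter. Deviations from the genotype means correlated at 0.509, 0.575 and 0.671 between same-numbered embryos, so the numbers were treated as pairs. Between other embryos the correlations were −0.438 to −0.0371. Deviations cancel within a genotype, so negative values there follow from the positive ones and are no separate evidence of pairing. The blocked fit is given where it changed a call among the genes and lists described. The p-values measure the spread between these 6 embryos.

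The genes and lists were chosen with earlier results of these data known, so no test over a list was made. Values per array are given for genes with an unadjusted limma p under 0.05 or without overlap, the 5 of smallest p in each direction, the 5 of smallest F-test p, all Stx3 probe sets and the 2 brightest of each role. Of the pathway genes the 2 of smallest p in each list are named, and of each marker list the summed signal and the 2 brightest. Promoters came from RefSeq (GRCm38.p6). Alternatives were the block, an intensity trend, quantile normalization, median centring, a pseudocount of 16, no filter or a threshold of 8, the mean of a gene's probe sets, leaving out each array, and embryos 1 and 2 alone.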

Additional observations from a re-analysis of the deposited data

How the results depend on the processing

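No gene of the set and no probe set passed an adjusted p of 0.05 between genotypes in limma under any alternative run. At an unadjusted p of 0.05 the count of genes went from 0 to 1 with the replicate block (Rims1), where 2.81% of all probe sets were called lower. It also went to 1 with embryos 1 and 2 alone (Syngr1). The share of all probe sets called in that fit is not given, so this count is not read as a result about the genes. The block changed no other call among the 34 genes, read on 1 probe set each. The median difference stayed between −0.05 and 0.02. Of the 34 genes 13 kept their sign when each array was left out in turn, and 12 under all 16 alternatives (Stx1a, Stx7, Syt4, Syp, Syngr1, Sv2a, Rab3a, Rab3c, Rims1, Pclo, Cplx2 and Nsf). With the mean of probe sets Stx6 was 0.33, Vamp3 0.09 and Cplx1 0.09, and with embryos 1 and 2 alone Sv2a was −0.10. The Stx6 mean includes 1441133_at (1.15), kept only through OC1-KO. That of Vamp3 includes 1437708_x_at (0.37), which was high in OC1-KO embryo 3 alone (11.78). Leaving out 1 array gave −0.28 to 0.19 for Stx3 on 1425536_at, turning its sign to 0.19, 0.03, 0.03 and 0.02 without WT embryo 1, WT embryo 2, OC1-KO embryo 2 and OC1-KO embryo 3. On 1434559_at it gave −0.81 to −0.66.

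The embryo number test depended strongly on the setting. The 1111 probe sets with an adjusted p under 0.05 became 4106 with an intensity trend, 0 with no filter, 2308 with a threshold of 8, 26 with the mean of probe sets, and 0 to 1481 when 1 array was left out (1481 without WT embryo 1, 0 without OC1-KO embryo 1, and 5 or 6 without each of the other four). Genes of the set that passed went from 0 to 2 with the trend (Vamp2 and Cplx1), where 4106 of all 20888 probe sets passed. The same 2 passed with the threshold of 8, where 2308 probe sets passed. Cplx1 alone passed with median centring and with the pseudocount of 16. No share of all probe sets is given for these last settings, so that count is not read as a result about the genes. The 7 genes at an unadjusted p of 0.05 became 2 with no filter and 3 to 5 when 1 array was left out (3 without WT embryo 1 or OC1-KO embryo 2, 4 without WT embryo 2). The share of all probe sets was 31.9% in the main fit and is not given for these settings. The fall is therefore not read as a result about the genes. The cause of the changes between settings was not tested. With 3 arrays per genotype, the genotype differences of these genes had a median half-width of 0.43 in the unpaired fit, so small differences remain uncertain.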
